A study of Mus musculus with 12 samples.

Results

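Myosin light chains are the small subunits that sit on the neck of a myosin heavy chain. The 10 light chain genes described here were taken by name from the deposited gene tables: Myl1, Mylpf, Myl2, Myl3, Myl4, Myl6, Myl6b, Myl9, Myl12a and Myl12b. They are 10 of 78298 genes in the table, and all 10 were among the 13318 genes that passed the filter on low counts. The samples were cultures of C2C12, an established mouse myoblast line that fuses into myotubes when the medium is changed. The RGECO group carried a genetically encoded calcium indicator and the WT group was the wild-type line. Both groups were grown on a hydrogel of methacrylated gelatin and differentiated for 14 days in medium with 10% horse serum, 50 ng/ml IGF-1 and 1 mg/ml aminocaproic acid, so these agents were shared by every library. The labels do not state whether the RGECO line is 1 clone or which promoter drives the indicator.

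Each hexameric myosin carries an essential and a regulatory light chain on each of its heavy chains. In striated muscle the fast, slow and embryonic fibre programmes use different light chain genes, and the embryonic essential chain Myl4 is made in developing skeletal muscle and in the atria. In smooth muscle and non-muscle cells, phosphorylation of the regulatory chain by light chain kinases switches on contraction, and myosin phosphatase reverses it.

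The labels list 6 RGECO and 6 WT libraries of poly(A)-selected RNA. RGECO replicate 4 held 825 counts, with 0 in all 10 light chain genes, and was left out, so the comparison is of 5 RGECO with 6 WT libraries. The RGECO libraries held 5881622 to 11926220 counts and the WT libraries 9370322 to 11744314. The share of counts in Malat1, a nuclear RNA, was 0.180% to 0.645% in RGECO and 0.156% to 0.898% in WT libraries, and the mitochondrial share was 0.298% to 1.33% in RGECO and 0.204% to 1.68% in WT. The 10 myofibre markers, among them Acta1, Ckm and Ttn, summed to 13240 to 17940 TPM in RGECO and 10860 to 13260 TPM in WT cultures. None passed the edgeR test in either direction, against 8.35% of all genes tested. In edgeR 2 had an unadjusted p under 0.05, against 22.1% of all genes. In DESeq2 and in limma 0 passed, against 12.6% and 4.54% of all genes. The labels call the cells myoblasts. The myoblast markers were also present, at a summed 188 to 260.5 TPM in RGECO and 195 to 257.6 TPM in WT.

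Together the light chain genes made up 0.527% to 0.681% of all counts in RGECO and 0.503% to 0.616% in WT libraries. On the length-corrected TPM scale (transcripts per 1000000) they summed to 13280 ± 1234 TPM in RGECO cultures and 11160 ± 375 TPM in WT cultures (SD, n = 5 and 6), with ranges that overlapped. The adult fast chains led in both lines. Myl1, the fast skeletal essential chain, stood at 5596 ± 925 TPM in RGECO and 4644 ± 461 TPM in WT. Mylpf, the fast skeletal regulatory chain, came second at 3089 ± 459 TPM in RGECO and 2953 ± 450 TPM in WT, and Myl4 followed at 2716 ± 280 TPM in RGECO and 2090 ± 229 TPM in WT. In both lines every library of Myl1 lay above every library of Mylpf, while the ranges of Mylpf and Myl4 overlapped.

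The non-muscle and smooth group came next. In RGECO cultures the order was Myl12b at 544 ± 93.3 TPM, Myl12a at 516 ± 75.9 TPM, Myl6 at 351 ± 37.2 TPM and Myl6b at 308 ± 43.9 TPM. In WT cultures it was Myl6 at 393 ± 37.1 TPM, Myl12a at 370 ± 71.3 TPM, Myl12b at 326 ± 52.9 TPM and Myl6b at 301 ± 36.1 TPM. Neighbours in these orders overlapped, except that in RGECO every Myl12a value was above every Myl6 value. The ranks of Myl12a and Myl12b rest on how reads were divided with Gm49909, a gene described further on that overlaps both. Summed over the 5 near-identical genes named there, the level was 1628 to 2503 TPM in RGECO and 1635 to 2079 TPM in WT. The slow chain Myl2 followed at 131 ± 47.8 TPM in RGECO and 61.6 ± 10.0 TPM in WT. The lowest 2 genes changed places. Myl3 and Myl9 stood at 13.3 ± 4.76 and 12.1 ± 3.43 TPM in RGECO with overlapping ranges, while in WT Myl9 at 21.95 ± 3.34 TPM lay above Myl3 at 4.70 ± 1.88 TPM in every library.

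**Figure D1:**
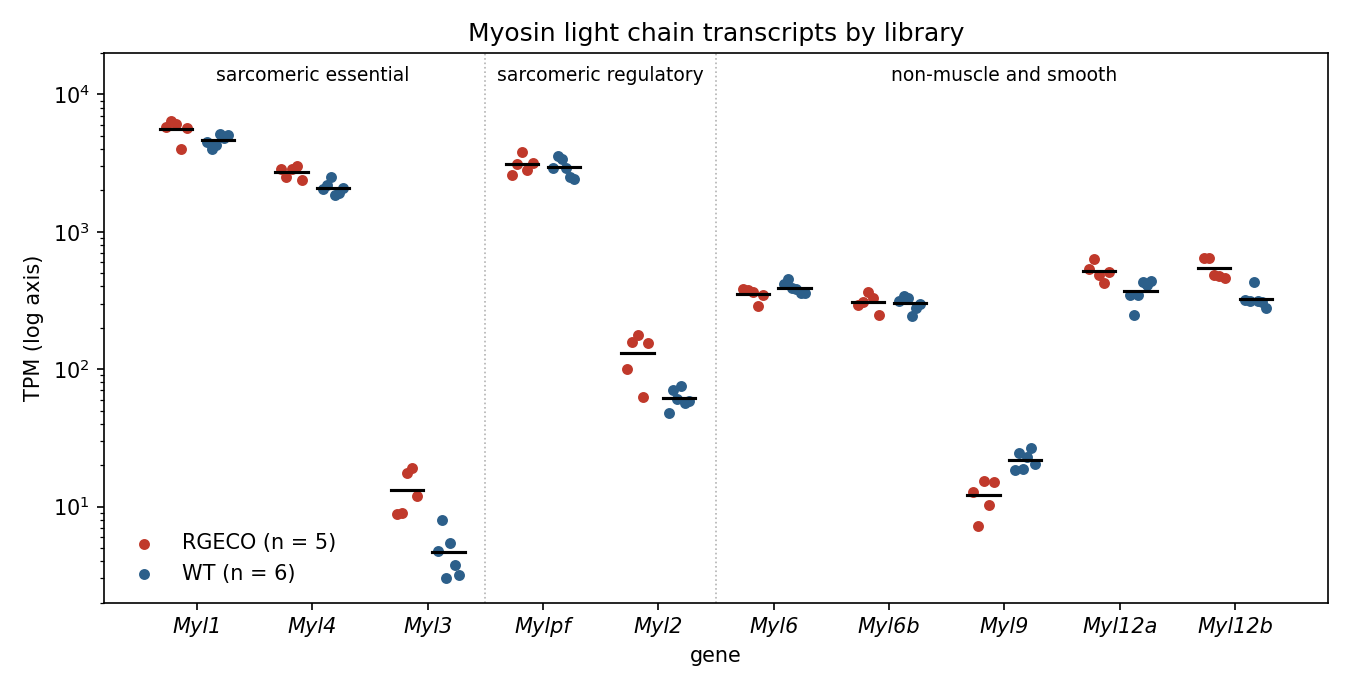
Level of each light chain gene in TPM on a log axis, with 1 point per library and a black line at the group mean (RGECO red, n = 5; WT blue, n = 6). Myl1, Mylpf and Myl4 are highest in both lines, the RGECO points of Myl3 and Myl12b lie above all WT points, and those of Myl9 lie below them. The points of Myl12a and Myl12b leave out Gm49909, a gene that overlaps both.

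The comparison of RGECO with WT asks how the light chains differ between the indicator line and the wild-type line. Myl12b and Myl3 rose and Myl9 fell, so 3 of the 10 passed the test (2 higher and 1 lower), against 8.35% of all genes tested (3.42% higher and 4.93% lower). The test was the quasi-likelihood F test of edgeR, with p-values adjusted by the Benjamini-Hochberg method over 13318 genes and a threshold of 0.05. Another 3 genes, Myl12a, Myl2 and Myl6, had adjusted p-values between 0.05 and 0.06. The median log2 fold change of the 10 genes was 0.21, and that of all genes tested was -0.01. By TMM-scaled counts per 1000000 (CPM) the ranges of the lines were apart for 4 of the 10 (Myl12a and Myl12b above, Myl6 and Myl9 below), against 7.97% of all genes. By TPM they were apart for Myl3, Myl9 and Myl12b, against 5.6% of all genes. For 7 of the 10 the 95% interval of the fold change lay within 2-fold either way, as it did for 74% of all genes. In bulk RNA, fewer cells of a type and less RNA per cell cannot be told apart, and this holds for every difference given here.

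**Figure D2:**
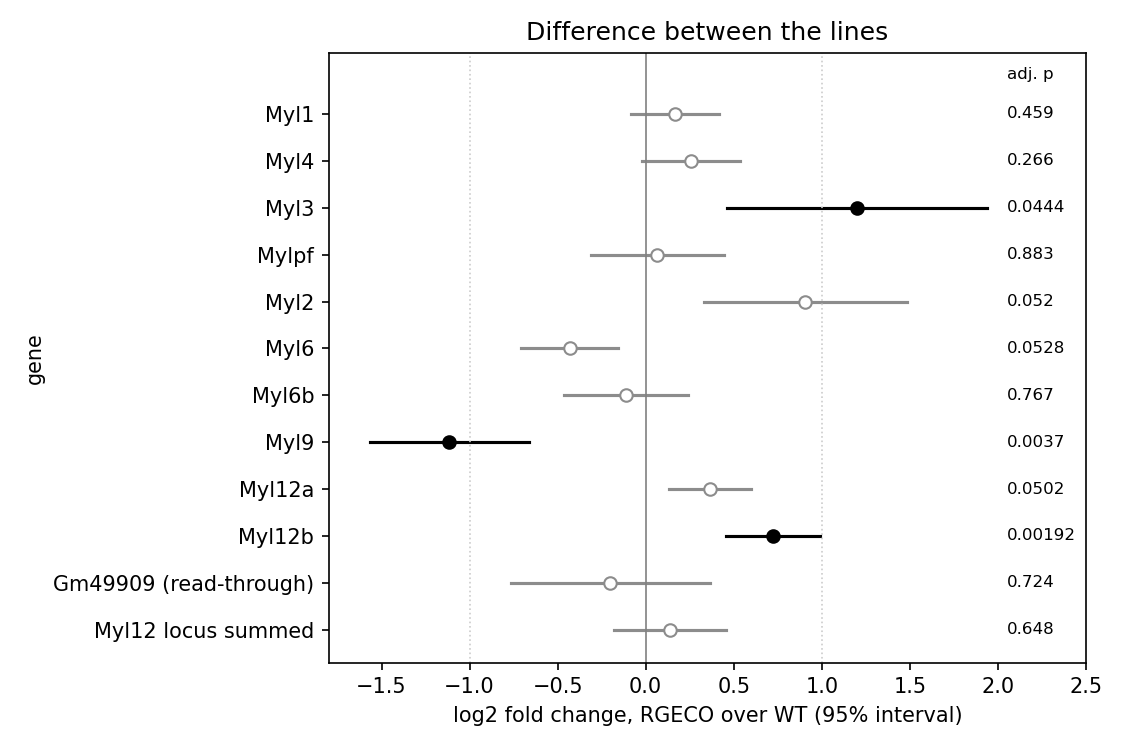
Log2 fold change of RGECO over WT with its 95% interval for the 10 light chain genes, the overlapping gene Gm49909 and the summed Myl12 genes. Filled black points passed an adjusted p of 0.05 in edgeR's quasi-likelihood test, and the adjusted p stands at the right. Myl3 and Myl12b lie to the right of 0, Myl9 lies to the left, and the summed Myl12 genes span 0.

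Among the sarcomeric essential chains, Myl3 rose in RGECO cultures while Myl1 and Myl4 did not pass the test. Myl3 is the essential chain of slow skeletal and ventricular myosin (ENSMUSG00000059741, chr9:110741861-110769798, plus strand, GRCm38). It was at 4.70, 5.41, 10.8, 8.75 and 7.19 CPM in RGECO replicates 1, 2, 3, 5 and 6, against a lowest value of 1.75, a median of 2.78 and a highest of 6.58 CPM in WT. Only WT replicate 2 reached into the RGECO range, and RGECO replicates 1 and 2 lay below it. The log2 fold change was 1.20 ± 0.35 (SE), a 2.30-fold higher level with a 95% interval of 1.37 to 3.84, at an adjusted p of 0.0444 in edgeR's quasi-likelihood test. The counts behind it were small, at 35 to 112 per library in RGECO and 18 to 59 in WT.

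The Myl3 call depended on single libraries. It was lost when any 1 library was left out other than RGECO replicate 1 or WT replicate 2, with log2 fold changes of 1.02 to 1.31 and adjusted p-values of 0.0561 to 0.126 in edgeR in those 9 fits. Pth1r, a hormone receptor gene, overlaps Myl3 on the opposite strand, and its counts came to 7.10% of those of Myl3 in RGECO and 19.7% in WT. The strand setting is not given, and overlap of their exons was not examined. Whether the genes share reads is therefore not known. WT replicate 2 also held the smallest Malat1 and mitochondrial shares of the 11 libraries, at 0.156% and 0.204%. Among WT libraries it was highest in CPM for Mylpf, Myl2, Myl3, Myl4, Myl6, Myl6b and Myl9. With the Malat1 share in the fit, Myl3 kept its call at a log2 fold change of 0.99 (adjusted p = 0.0196, edgeR), and with the mitochondrial share it was 1.16 (adjusted p = 0.00853). In those fits 6 and 5 light chain genes passed, against 17.1% and 20.9% of all genes.

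Myl1 (ENSMUSG00000061816, chr1:66924295-66945404, minus strand) ran at 1860 to 2735 CPM in RGECO and 1822 to 2265 CPM in WT, and the lines overlapped. Its log2 fold change was 0.17 ± 0.12 with an adjusted p of 0.459 in edgeR, and the 95% interval was -0.08 to 0.42. Myl4 (ENSMUSG00000061086, chr11:104550663-104595753, plus strand) was at 1454, 1429, 1641, 1838 and 1364 CPM in RGECO, against 1086 to 1566 CPM with a median of 1260 in WT. Its log2 fold change of 0.26 ± 0.13 did not pass (adjusted p = 0.266, edgeR). On the log2(TPM + 1) scale, the difference of Myl4 was 0.38 with an adjusted p of 0.0483 in limma, and with 1 surrogate variable in the edgeR fit it was 0.28 with an adjusted p of 0.00957.

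Among the sarcomeric regulatory chains, neither gene passed the edgeR test, and the call of Myl2 depended on the method. Myl2 is the regulatory chain of slow skeletal and ventricular myosin (ENSMUSG00000013936, chr5:122100951-122113472, plus strand). It was at 27.0, 54.2, 60.4, 19.1 and 58.1 CPM in RGECO replicates 1, 2, 3, 5 and 6, against a lowest value of 16.2, a median of 22.9 and a highest of 32.1 CPM in WT. The RGECO libraries split: replicates 2, 3 and 6 lay above every WT library, and replicates 1 and 5, the shallowest of the 11, lay inside the WT range. The log2 fold change was 0.91 ± 0.27 with an adjusted p of 0.0520 in edgeR.

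Myl2 passed in DESeq2 (adjusted p = 0.0106), in edgeR with the size factors of DESeq2 (0.0451) or with all 12 libraries (0.0274), and in limma on log2(TPM + 1) and log2(TPM + 0.1) (0.0259 and 0.0275). It did not pass in limma with no filter on low values (0.0859) or with the Malat1 share (0.0711) or the mitochondrial share (0.0777) in the edgeR fit. In edgeR it also failed with no filter (0.198), the replicate number as a block (0.0683), 1 surrogate variable (0.0862) or upper-quartile scaling (0.0520). Leaving out 1 library moved it across the threshold in 3 cases. Without RGECO replicate 1 its adjusted p in edgeR was 0.0335, without RGECO replicate 5 it was 0.00832, and without WT replicate 2 it was 0.0335. Without both RGECO replicates 1 and 5, a choice made after seeing the data, the log2 fold change was 1.29 with an adjusted p of 0.00174. Mylpf (ENSMUSG00000030672, chr7:127208890-127214298, plus strand) averaged 1325 ± 294 CPM in RGECO and 1266 ± 318 CPM in WT, a log2 fold change of 0.07 ± 0.18 (adjusted p = 0.88, edgeR). Its sign was not fixed, since without RGECO replicate 3 it was -0.04.

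The ratios among sarcomeric chains are given without a test, because they are computed over the genes chosen. Myl4 made up 33.0 ± 5.85% of the summed TPM of Myl1, Myl3 and Myl4 in RGECO and 31.1 ± 4.11% in WT, with overlapping ranges. RGECO replicate 5 alone reached 42.7%, and without it the difference between the lines was -0.58 percentage points in place of 1.86. Myl3 was a small part of that pool, at 0.101% to 0.269% in RGECO and 0.0445% to 0.130% in WT. Myl2 made up 3.99 ± 1.09% of the TPM of Mylpf and Myl2 together in RGECO and 2.07 ± 0.353% in WT. Of the RGECO libraries only replicate 5, at 2.21%, fell inside the WT range of 1.62% to 2.52%. The essential chains outweighed the regulatory chains 2.62 ± 0.361 to 1 in RGECO and 2.29 ± 0.424 to 1 in WT, and these ranges overlapped too. Without RGECO replicate 1 the difference in that ratio was 0.191, and without WT replicate 2 it was 0.217, in place of 0.332.

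**Figure D3:**
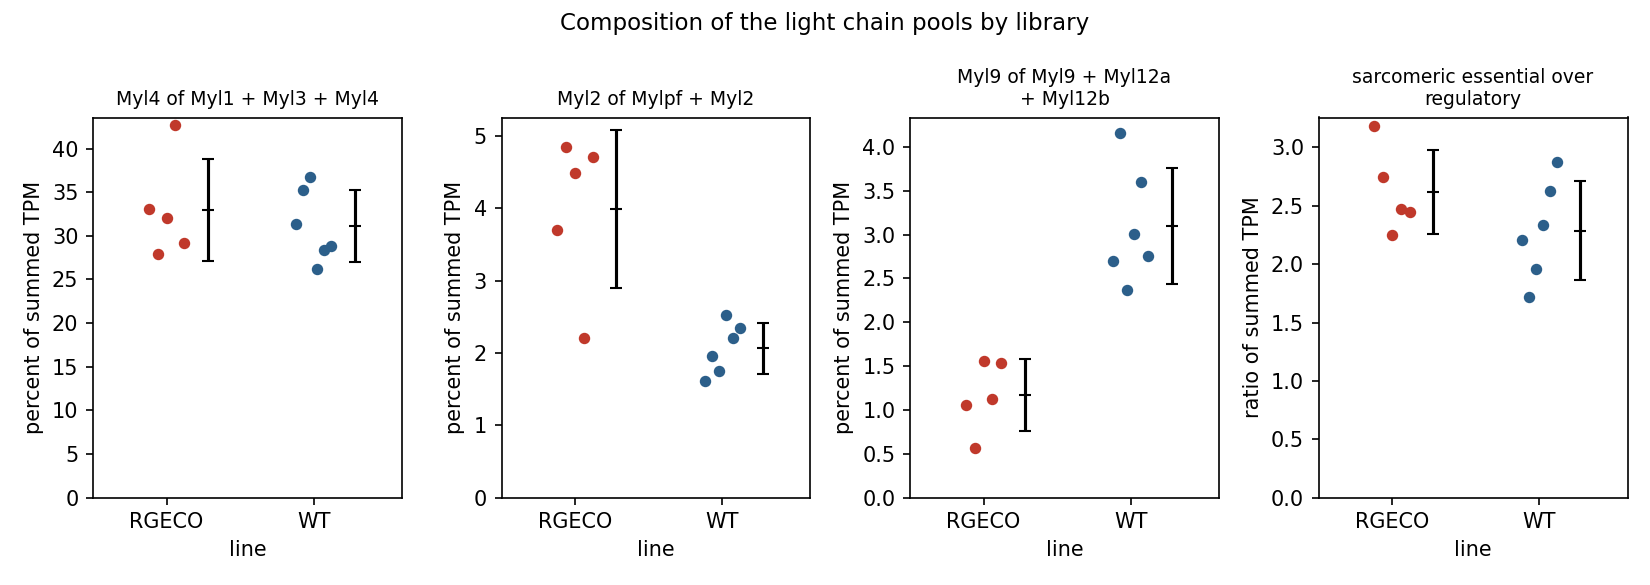
Composition of the light chain pools, with 1 point per library and the mean ± SD beside each group (RGECO red, n = 5; WT blue, n = 6). The shares of Myl4 and Myl2 and the ratio of essential to regulatory chains overlap between the lines, and the share of Myl9 does not (0.563% to 1.56% in RGECO, 2.37% to 4.16% in WT). The share of Myl9 is of Myl9, Myl12a and Myl12b and leaves out Gm49909, which overlaps Myl12a and Myl12b.

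The non-muscle essential chains are neighbours on chromosome 10. Myl6 is the common essential chain of smooth and non-muscle myosin (ENSMUSG00000090841, chr10:128490860-128494145, minus strand), and Myl6b (ENSMUSG00000039824, chr10:128494157-128498685, minus strand) encodes a related essential chain found in slow muscle and non-muscle cells. Myl6 was at 159, 158, 161, 135 and 156 CPM in RGECO, against a lowest value of 164, a median of 195 and a highest of 272 CPM in WT. All RGECO libraries lay below all WT libraries on this scale, yet the log2 fold change of -0.43 ± 0.13 missed the threshold (adjusted p = 0.0528, edgeR). Without WT replicate 6 it was -0.48 with an adjusted p of 0.0299, and DESeq2 gave -0.42 with an adjusted p of 0.0238. In edgeR it also passed with the Malat1 share (adjusted p = 0.00374), the mitochondrial share (0.002465) or 1 surrogate variable (0.00378) in the fit. With no filter on low counts the adjusted p in edgeR was 0.0387. Of 24 alternatives Myl6 passed in 6 and did not pass in 18. Limma on log2(TPM + 1) gave a smaller difference of -0.16 with an adjusted p of 0.422. In TPM the lines overlapped, at 288 to 380 in RGECO and 358 to 456 in WT. Myl6b averaged 207 ± 37.4 CPM in RGECO and 223 ± 55.7 CPM in WT, a log2 fold change of -0.11 ± 0.17 (adjusted p = 0.767, edgeR) that was 0.02 without WT replicate 2 and 0.03 in limma on log2(TPM + 1). With the Malat1 share in the edgeR fit it was -0.28 with an adjusted p of 0.0473.

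The smooth and non-muscle regulatory chains are closely related, and the reads were short, so their sequences bear on how counts were divided among them. Over 519 coding bases, Myl12a and Myl12b were 96.5% identical, differing at 18 positions; Myl9 was 86.3% identical to Myl12b and differed from it at 71. The first 120 coding bases of the main transcript of each are given below, 5′ to 3′ (GENCODE M21), to show how far reads of 50 bases can separate the 3 genes; capitals in Myl12a and Myl9 mark bases that differ from Myl12b. Myl12b and Myl12a lie on the minus strand of chromosome 17, Myl9 on the plus strand of chromosome 2.
Myl12b: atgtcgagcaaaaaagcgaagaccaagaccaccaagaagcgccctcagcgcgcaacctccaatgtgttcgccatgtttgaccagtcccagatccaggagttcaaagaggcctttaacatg
Myl12a: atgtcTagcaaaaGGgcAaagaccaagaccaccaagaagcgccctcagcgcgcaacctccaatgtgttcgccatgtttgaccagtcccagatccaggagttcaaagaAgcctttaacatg
Myl9: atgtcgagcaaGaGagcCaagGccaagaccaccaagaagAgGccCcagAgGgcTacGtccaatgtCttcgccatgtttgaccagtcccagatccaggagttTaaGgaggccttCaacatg
Within this stretch Myl12a differed from Myl12b at 5 bases and Myl9 at 15. Of all 45 pairs among the 10 genes, only Myl12a and Myl12b shared any 50-base window between their main transcripts, with 192 such windows (20.6% of those of Myl12a and 9.17% of those of Myl12b). Myl9 shared none with either.

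Myl9 fell in RGECO cultures. It encodes the regulatory chain of smooth muscle and non-muscle myosin (ENSMUSG00000067818, chr2:156775420-156781658, plus strand). It was at 8.45, 5.41, 11.7, 8.40 and 7.61 CPM in RGECO replicates 1, 2, 3, 5 and 6, against a lowest value of 14.0, a median of 17.4 and a highest of 24.9 CPM in WT. Every RGECO library lay below every WT library. The log2 fold change was -1.11 ± 0.21, which is 0.462 of the WT level with a 95% interval of 0.338 to 0.632, at an adjusted p of 0.00370 in edgeR. Of the TPM of Myl9, Myl12a and Myl12b together, Myl9 held 1.17 ± 0.410% in RGECO and 3.10 ± 0.660% in WT. That total leaves out Gm49909, a gene described further on that overlaps Myl12a and Myl12b. Gm49909 held 721.7 to 1495 TPM in RGECO and 895.6 to 1515 TPM in WT. With it in the total, the Myl9 share would be smaller in both lines.

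Smooth muscle markers did not share 1 direction. Of 10 markers listed, 7 were tested, and 2 fell and 0 rose, against 4.93% and 3.42% of all genes. Of the 7, 6 had an unadjusted p under 0.05 in edgeR, against 22.1% of all genes. In DESeq2 4 passed, against 12.6% of all genes, and in limma on log2(TPM + 1) 1 passed, against 4.54%. Tagln, an actin-binding protein of smooth muscle, averaged 121 ± 31.5 CPM in RGECO and 196 ± 33.7 CPM in WT (log2 fold change -0.70, adjusted p = 0.0178, edgeR). Actg2, enteric smooth muscle actin, averaged 43.4 ± 11.1 CPM in RGECO and 72.2 ± 7.71 CPM in WT (log2 fold change -0.74, adjusted p = 0.00626, edgeR). Acta2 had a log2 fold change of -0.39 with an adjusted p of 0.0669 in edgeR. Lmod1 and Smtn were also lower, at -0.61 and -0.30, with adjusted p-values of 0.0954 and 0.303 in edgeR. Des and Synpo2 had the opposite sign, at 0.44 and 0.37, with adjusted p-values of 0.0965 and 0.114. The list summed to 3093 to 4621 TPM in RGECO and 2790 to 3765 TPM in WT, a sum led by Des and Acta2, which myotubes also express. The markers that define mature smooth muscle were near 0, with 29 counts of Myh11 over the RGECO libraries and 32 over the WT libraries, 14 and 69 of Cnn1 in RGECO and WT, and 2 of Myocd in each line. Of the fibroblast markers, 6 of 7 were tested. Col1a1, Col1a2 and Pdgfrb fell (log2 fold changes of -1.98, -0.74 and -1.59), Dcn rose (0.96), so 3 fell and 1 rose, against 4.93% and 3.42% of all genes. Their summed level was 627.5 to 926.6 TPM in RGECO and 930.9 to 1585 TPM in WT. Thy1 had 1 count in RGECO and 0 in WT. The part of either cell type in the Myl9 result was not tested.

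Myl12b rose in the counts assigned to it, while the sum over its locus, given further on, did not pass the test. Myl12b (ENSMUSG00000034868, chr17:70973133-70990890, minus strand) and Myl12a (ENSMUSG00000024048, chr17:70993656-71002878, minus strand) encode the regulatory chains of non-muscle myosin and lie side by side. Myl12b was at 188, 192, 147, 174.5 and 162 CPM in RGECO replicates 1, 2, 3, 5 and 6, against a lowest value of 87.5, a median of 99.97 and a highest of 142 CPM in WT. All RGECO libraries lay above all WT libraries, WT replicate 3 coming nearest. The log2 fold change was 0.72 ± 0.13, a 1.65-fold higher level with a 95% interval of 1.37 to 1.99, at an adjusted p of 0.00192 in edgeR.

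Myl12a was at 305, 411, 319, 291 and 324 CPM in RGECO, against a lowest value of 220, a median of 260.1 and a highest of 289 CPM in WT. The lines were again apart, by a narrow gap, and the log2 fold change of 0.37 ± 0.11 had an adjusted p of 0.0502 in edgeR. Without RGECO replicate 5 the adjusted p was 0.0411, and without WT replicate 4 it was 0.0415. It passed in DESeq2 (adjusted p = 0.00981) and did not pass in limma on log2(TPM + 1) (adjusted p = 0.0764). In edgeR it passed with the Malat1 share (adjusted p = 0.0187), the mitochondrial share (0.00175) or 1 surrogate variable (0.003155) in the fit. Of 24 alternatives Myl12a passed in 8 and did not pass in 16. Myom1, which encodes a protein of the sarcomeric M-band, overlaps Myl12a on the opposite strand and had 74.0% as many counts in RGECO and 84.8% in WT.

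A further gene spans both. Gm49909 (ENSMUSG00000117098, chr17:70974119-71002208, minus strand) has this name in the deposited counts. GENCODE M21 lists it as a further protein-coding gene under the name Myl12b. Here Myl12b means ENSMUSG00000034868 alone. Gm49909 matched the coding sequences of both genes over 519 bases, that of Myl12b without a difference and that of Myl12a at 99.8% identity. Of its 1098 windows of 50 bases, 95.6% occur in a transcript of Myl12a or Myl12b. It held 19045 counts over the RGECO libraries and 26806 over the WT libraries, 243% of the Myl12b counts in RGECO and 426% in WT. Of the counts of the 3 genes together it took 36.3%, 42.6%, 54.9%, 37.8% and 45.7% in RGECO replicates 1, 2, 3, 5 and 6, against 46.3% to 71.3% in WT. WT replicates 1 and 2 were the highest of all, at 61.7% and 71.3%. Gm49909 averaged 397 ± 120 CPM in RGECO and 457 ± 195 CPM in WT, a log2 fold change of -0.20 ± 0.26 (adjusted p = 0.724, edgeR) that was 0.03 without WT replicate 2.

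Summed over the 5 near-identical genes (Myl12a, Myl12b, Gm49909 and the pseudogenes Gm6517 and Gm2805), a choice made after seeing the data, the difference between the lines did not pass the test. The summed level was 775, 1050, 1033, 749 and 895 CPM in RGECO, against 655 to 1105 CPM in WT, and the lines overlapped over most of their range. The means were 900 ± 140 CPM in RGECO and 817 ± 181 CPM in WT, a log2 fold change of 0.14 ± 0.15 with a 95% interval of -0.18 to 0.46 (adjusted p = 0.648, edgeR). Leaving out WT replicate 2 moved it to 0.25, the largest value with any 1 library left out, and leaving out RGECO replicate 2 moved it to 0.09, the smallest. The other close copies in the annotation were minor: Mylf-ps, a pseudogene of Myl1, had 0.299% as many counts as Myl1 in RGECO and 0.369% in WT.

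**Figure D4:**
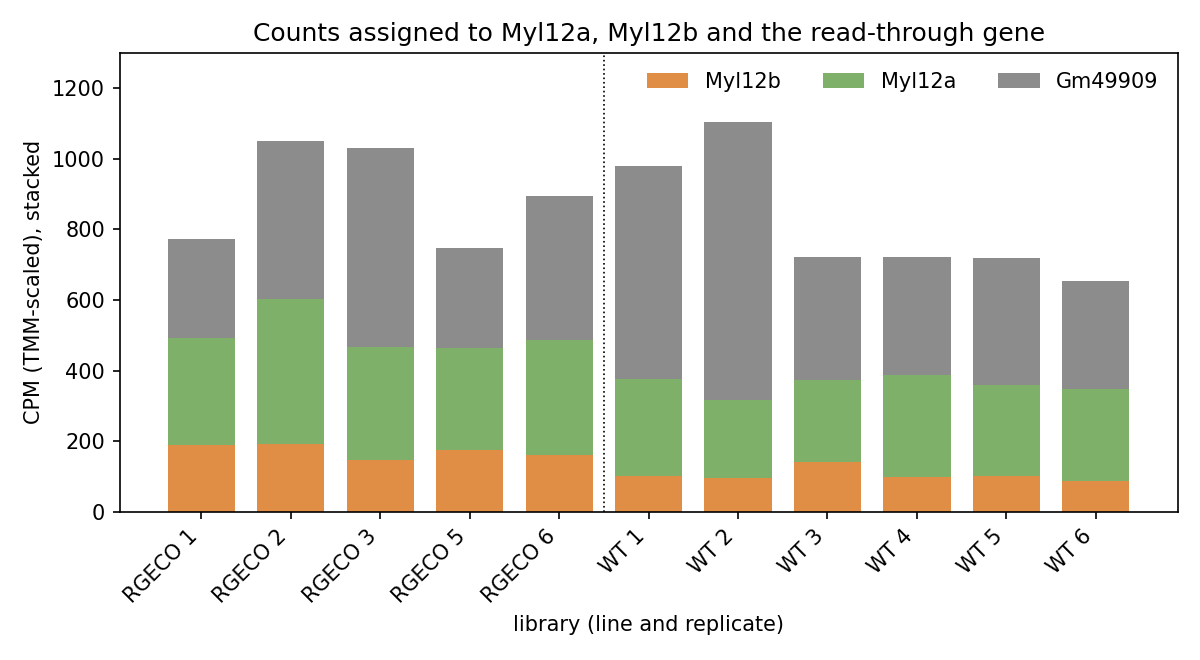
CPM assigned to Myl12b, Myl12a and the overlapping gene Gm49909 in each library, stacked. The RGECO libraries stand left of the dotted line and the WT libraries right of it. The Myl12b segment is taller in every RGECO library (147 to 192 CPM) than in any WT library (87.5 to 142 CPM), while the stacked totals overlap.

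Across the whole family, the non-muscle and smooth genes held 13.1 ± 1.10% of the light chain TPM in RGECO and 12.7 ± 0.318% in WT, so the balance between sarcomeric and non-muscle chains differed by 0.418 percentage points, within the spread. On estimated counts the same difference was -0.517 percentage points, and on TPM it was 0.134, 0.208, 0.764 and 0.644 without RGECO replicates 1, 2, 3 and 6 in turn. These shares leave out Gm49909, which held 721.7 to 1495 TPM in RGECO and 895.6 to 1515 TPM in WT. With it in the non-muscle group the share would be larger in both lines, and the RGECO mean would fall below the WT mean. Of the other light chain genes, Myl7, the atrial regulatory chain, had 0 counts in all 11 libraries, where 3 counts would correspond to 0.252 to 0.51 CPM, a limit that covers counting error only. Myl10 had 0 counts in RGECO and 5 in WT.

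Of 54 genes tested in 6 lists of genes that act on the light chains or bind them, 2 rose and 4 fell. That is 11.1%, close to the 8.35% of all genes. Of the 54, 14 had an unadjusted p under 0.05 in edgeR, against 22.1% of all genes. With the Malat1 share in the fit 15 passed, against 17.1% of all genes, and with the mitochondrial share 15, against 20.9%. Among 13 light chain kinases tested of 14 listed, 1 rose and 1 fell, with a median log2 fold change of -0.16. Mylk4, a member of the myosin light chain kinase family, averaged 70.3 ± 6.42 CPM in RGECO and 139 ± 20.8 CPM in WT, and the lines did not overlap. Its log2 fold change was -0.98 ± 0.12 with an adjusted p of 0.000122 in edgeR. Cdc42bpg, a kinase of the MRCK group, averaged 52.2 ± 8.61 CPM in RGECO and 30.6 ± 9.29 CPM in WT (log2 fold change 0.77 ± 0.19, adjusted p = 0.0203, edgeR). That call was lost without RGECO replicate 1 (adjusted p = 0.0625) or WT replicate 5 (adjusted p = 0.0506).

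None of 7 phosphatase genes tested passed in edgeR, against 8.35% of all genes, with a median log2 fold change of 0.05. Of the 7, 2 had an unadjusted p under 0.05 in edgeR, against 22.1% of all genes. In DESeq2 1 passed, against 12.6% of all genes, and in limma on log2(TPM + 1) 0 passed, against 4.54%. Ppp1cb, the catalytic subunit of myosin phosphatase, had the highest CPM of them, which is not corrected for length, at 235 ± 66.2 CPM in RGECO and 184 ± 89.4 CPM in WT. Its log2 fold change was 0.35 ± 0.31 (adjusted p = 0.575, edgeR). It was 0.76 with an adjusted p of 0.0137 with the Malat1 share in the fit, 0.60 (adjusted p = 0.135) in limma on log2(TPM + 1), and between 0.21 (without WT replicate 2) and 0.55 (without WT replicate 6) with 1 library left out.

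Of 8 sarcomeric heavy chains tested, to which these light chains bind, 1 rose and 2 fell, against 3.42% and 4.93% of all genes, with a median log2 fold change of -0.39. Myh3, the embryonic heavy chain, averaged 2193 ± 417 CPM in RGECO and 1506 ± 207 CPM in WT (log2 fold change 0.54 ± 0.13, adjusted p = 0.0203, edgeR), and the call was lost without RGECO replicate 3 (adjusted p = 0.0575). Myh8, the perinatal heavy chain, averaged 311 ± 64.4 CPM in RGECO and 650 ± 106 CPM in WT (log2 fold change -1.06 ± 0.15, adjusted p = 0.000383, edgeR). Myh7, the slow heavy chain that pairs with Myl2 and Myl3 in slow fibres, averaged 610 ± 53.8 CPM in RGECO and 889 ± 162 CPM in WT (log2 fold change -0.54 ± 0.13, adjusted p = 0.0125, edgeR). Several of these heavy chain genes are close in sequence, so reads may be split among them. Myh7 had the opposite sign to Myl3, which rose, and to Myl2, which did not pass. The 4 cardiac markers tested of 8 listed did not pass in edgeR in either direction, against 8.35% of all genes. Of them, 2 had an unadjusted p under 0.05 in edgeR, against 22.1% of all genes. In DESeq2 1 passed, against 12.6%, and in limma 0 passed, against 4.54%. Nppa had 0 counts.

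Non-muscle and smooth heavy chains did not pass in any of the 3 genes tested in edgeR, DESeq2 or limma. The shares of all genes were 8.35%, 12.6% and 4.54% in turn. Of the 3, 0 had an unadjusted p under 0.05 in edgeR, against 22.1% of all genes. Myh9, the heavy chain of non-muscle myosin IIA, had the highest CPM of them, at 1158 ± 123 CPM in RGECO and 1098 ± 204 CPM in WT (log2 fold change 0.08 ± 0.13, adjusted p = 0.793, edgeR). Of 15 genes for myosin folding and thick filament assembly, 0 rose and 1 fell, against 3.42% and 4.93% of all genes. Unc45a, a general myosin chaperone, averaged 14.2 ± 1.89 CPM in RGECO and 21.5 ± 3.44 CPM in WT (log2 fold change -0.60 ± 0.16, adjusted p = 0.0257, edgeR). The call was lost when any of RGECO replicates 1, 2 and 6 or WT replicates 1, 3 and 5 was left out, with adjusted p-values of 0.0580 to 0.0810. It was also lost in limma on log2(TPM + 1) (-0.46, adjusted p = 0.255) and in edgeR with no filter on low counts (adjusted p = 0.0519). None of 8 unconventional myosins passed in edgeR, DESeq2 or limma, against 8.35%, 12.6% and 4.54% of all genes. Of the 8, 0 had an unadjusted p under 0.05 in edgeR, against 22.1%. Myo18a, the highest of them in CPM, averaged 714 ± 86.7 CPM in RGECO and 578 ± 141 CPM in WT (log2 fold change 0.31 ± 0.15, adjusted p = 0.264, edgeR); with 1 surrogate variable in the fit it was 0.35 with an adjusted p of 0.00285.

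**Figure D5:**
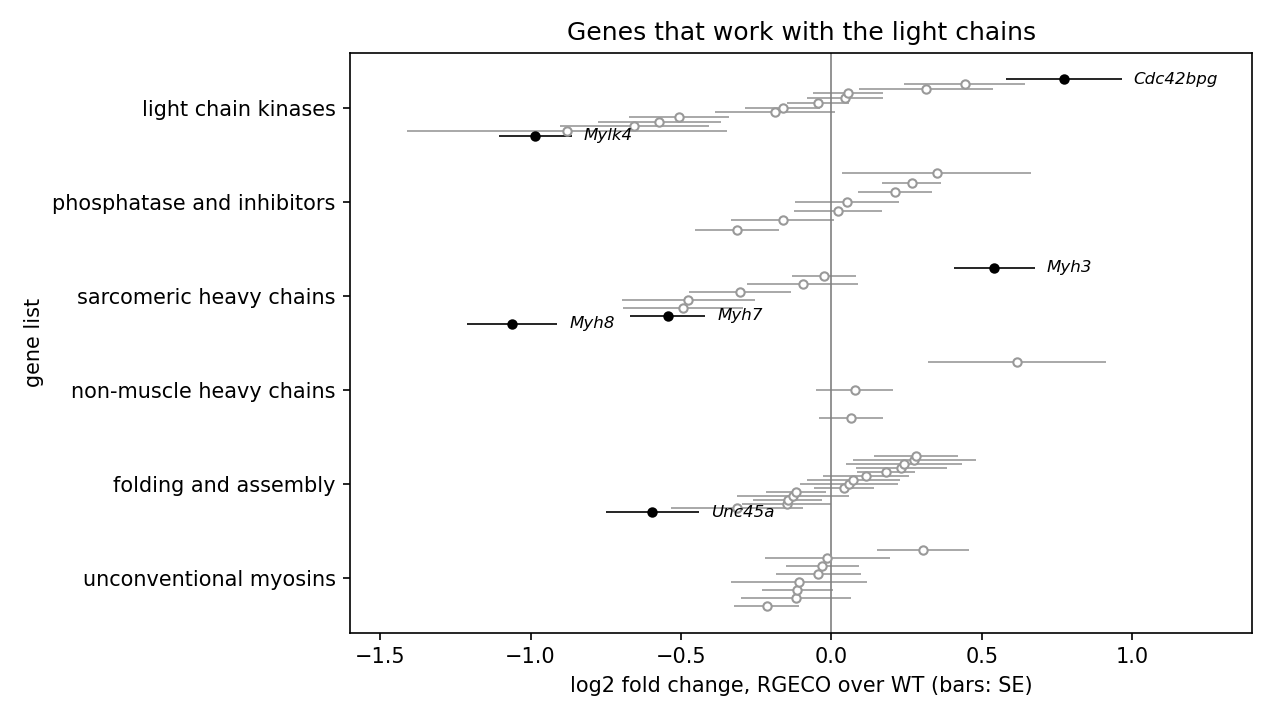
Log2 fold change of RGECO over WT with its SE for each tested gene of 6 lists of genes that act on or bind light chains; filled black points passed an adjusted p of 0.05 in edgeR's quasi-likelihood test and are named. Mylk4, Myh7, Myh8 and Unc45a lie left of 0, and Cdc42bpg and Myh3 lie right of it.

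For each light chain that passed, the 3 genes with the most similar pattern over the 11 libraries were found by the mean absolute difference of centred log2 CPM, among 7884 candidate genes. Nearest to Myl3 were Epb41 (0.38), Bglap2 (0.39) and Unc13d (0.39), where the median candidate stood at 0.72. Nearest to Myl9 were Cdc42ep1 (0.18), Gpt2 (0.18) and Fgf21 (0.21), against a median of 0.58. Nearest to Myl12b were Pcolce2 (0.11), Pea15a (0.12) and Hipk2 (0.12), against a median of 0.41. Bglap2 has a close paralog, so its counts are uncertain. The profiles of all genes share the same libraries and scaling, so these are descriptions.

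Sequence upstream of RefSeq starts (GRCm38.p6) was available in 12 windows of 250 bases for the 10 genes. These starts are not always the GENCODE starts given above. Both Myl2 windows (chr5:122092474-122092723 and chr5:122092939-122093188) lay before the GENCODE gene. The windows of Myl1, Mylpf (chr7:127211358-127211607), Myl3, Myl6, Myl12a and Myl12b lay inside theirs. Sequence upstream of the outermost GENCODE starts of these genes was not searched. Both strands were searched for the CArG box, which serum response factor binds, the MEF2 box, the E-box CAGCTG and the MCAT element CATTCC. A CArG box was found for 3 of the genes (Myl3, Myl6 and Myl9), where 1.47% of 32851 RefSeq windows held one. For Myl6 it lay only in the window farther inside the GENCODE gene. CAGCTG was found for Myl1, Mylpf, Myl2 and Myl12a (13.0% of all windows), CATTCC for Myl1 and Myl3 (12.6%), and the MEF2 box in none of the 12 windows (2.92%). The sequences of Myl3 and Myl9, the called genes outside the shared locus, are given 5′ to 3′ on the plus strand with the CArG box and CATTCC, in either orientation, in capitals; the stretches are chr9:110763428-110763645 and chr2:156775214-156775407 and end before the next annotated start downstream. No matches overlapped each other.
Myl3: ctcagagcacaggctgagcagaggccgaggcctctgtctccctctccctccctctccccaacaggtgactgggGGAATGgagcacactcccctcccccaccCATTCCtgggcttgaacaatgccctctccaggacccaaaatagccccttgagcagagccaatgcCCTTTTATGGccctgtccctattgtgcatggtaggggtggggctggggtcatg
Myl9: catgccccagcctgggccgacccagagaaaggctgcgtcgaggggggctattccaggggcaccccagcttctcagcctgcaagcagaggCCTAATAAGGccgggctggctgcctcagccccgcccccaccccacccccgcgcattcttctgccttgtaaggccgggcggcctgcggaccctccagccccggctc
Both hold a CArG box; Myl3 rose and Myl9 fell. A match is a description of these letters and not evidence of binding.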

How the data were processed

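Per the labels' protocols, poly(A)-selected RNA was amplified over 14 PCR cycles and read in pairs of 50 bases. The deposited tables, 1 of estimated counts and 1 of TPM per gene, were merged by the authors from Salmon output, per their names. Estimated counts were left unscaled by the authors and include fractions of reads. TPM values were corrected for length and brought to an equal sum per library by the authors. The submitters' processing notes name Salmon, STAR, BWA 0.7.12-r1039 and bedtools 2.25.0, and as builds GRCm39, mm10 and hg19, with no role for each. They do not give an annotation or strand setting.

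Libraries under 1000000 counts were left out, which removed RGECO replicate 4. Every column matched a sample. All 25 pairs of libraries of the same line differed beyond sampling noise, with a chi-square per gene of at least 7.73 (genes with 20 or more counts in the pair). Separate cultures are not stated for the replicates; the p-values then reflect only the spread among these samples, and that spread may be technical.

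Estimated counts were rounded and tested with edgeR 4.0.16 (filterByExpr, TMM, robust quasi-likelihood F test) in R 4.3.3, with Benjamini-Hochberg adjustment over 13318 genes. The common biological coefficient of variation was 25.2%. Shares and levels between genes used TPM, with no test. The edgeR and limma steps were tested on simulated data. Alternatives used DESeq2 1.42.0, limma 3.58.1 on log2(TPM + 1) and log2(TPM + 0.1), sva 3.50.0, other scalings, filters and left-out libraries. Positions, coding sequences and transcript windows are from GENCODE M21 (GRCm38), which need not be the authors' annotation; upstream sequences are from RefSeq.

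All 10 light chain genes are named. Of each related list, the genes past the threshold are named, or else the one with the highest mean CPM; similar genes needed a mean log2 CPM of at least 4. The genes and lists were chosen with earlier results of these data known, so no list is independent support. Endothelial and adipocyte markers had 0 tested genes; 1 immune and 1 neural marker was tested and neither passed. Of the 6 myoblast markers, 1 rose (Myf5) and 2 fell (Myod1 and Ccnb1) in edgeR, against 3.42% and 4.93% of all genes. In DESeq2 4 passed, against 12.6% of all genes, and in limma on log2(TPM + 1) 1 passed, against 4.54%.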

Additional observations from a re-analysis of the deposited data

Results flagged for a closer look

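In 6 of 64 groups of libraries examined, 1 library stood apart from the rest of its line by Dixon's criterion; chance gives about 1 in 20. Myl12a was 410.8 CPM in RGECO replicate 2, above 290.9 to 323.6 CPM in the other RGECO libraries. Myl12b was 141.9 CPM in WT replicate 3, above 87.47 to 101.4 CPM in the other WT libraries, and on the TPM scale it was 430.4 there, above 278.0 to 317.4. Myl3 was 6.579 CPM in WT replicate 2, above 1.748 to 3.547 CPM in the other WT libraries. Myl6 was 135.3 CPM in RGECO replicate 5, below 156.0 to 161.1 CPM in the other RGECO libraries. The ratio of summed Myl12a and Myl12b TPM to Myl9 TPM was 176.6 in RGECO replicate 2, above 63.18 to 93.69 in the other RGECO libraries.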

How the results depend on the processing

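Of the light chain genes, 3 passed in the comparison as reported. The number was 5 with DESeq2's size factors in edgeR, 6 in DESeq2, 5 in limma on log2(TPM + 1) and on log2(TPM + 0.1), 6 with the Malat1 share, 5 with the mitochondrial share and 6 with 1 surrogate variable in the fit, 2 to 4 with 1 library left out, and 4 without RGECO replicates 1 and 5 together, a choice made after seeing the data (Myl3 had an adjusted p of 0.0875 there). Of the related genes, 6 passed, against 3 with all 12 libraries, 2 in limma on log2(TPM + 1) without a filter, 15 with the Malat1 or the mitochondrial share, 19 with 1 surrogate variable, and 4 to 7 with 1 library left out. Of all genes, 1112 passed, against 1674 in DESeq2, 605 and 587 in limma with pseudocounts of 1 and 0.1, 258 in limma without a filter, 2272 with the Malat1 share, 2784 with the mitochondrial share, 2855 with 1 surrogate variable, and 785 to 1140 with 1 library left out. The cause of these differences was not tested.

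Myl9 kept its call in all alternatives except limma on log2(TPM + 1) without a filter (log2 fold change -0.84, adjusted p = 0.0730). Myl12b kept its call except with all 12 libraries (0.65, adjusted p = 0.134), where those of Myh3, Myh7, Myh8 and Unc45a were lost too. With all 12 libraries the sign turned for Myl1 (-0.0795), Mylpf (-0.17), Myh9 (-0.15) and the summed Myl12 genes (-0.0839). Mylpf was also -0.0807 with the Malat1 share, and with 1 library left out it ran from -0.0379 (without RGECO replicate 3) to 0.21. Myl6b was 0.0294 in limma on log2(TPM + 1) with and without a filter and 0.0295 on log2(TPM + 0.1), and ran from -0.19 to 0.0208 (without WT replicate 2) with 1 library left out. Gm49909 ran from -0.36 to 0.0324 (without WT replicate 2) and was 0.0551 without RGECO replicates 1 and 5. The non-muscle share differed by -0.517 percentage points on estimated counts. The other differences in shares ran, with 1 library left out, from -0.576 to 3.14 percentage points for Myl4, 1.71 to 2.37 for Myl2 and 0.134 to 0.764 for the non-muscle share, and from 0.191 to 0.449 for the ratio of essential to regulatory chains. Shares with all 12 libraries could not be given, since RGECO replicate 4 had 0 light chain counts.

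The deviations of same-numbered libraries had correlations of -0.009, -0.153, 0.007, -0.151 and 0.364 for numbers 1, 2, 3, 5 and 6. Median correlations with the other numbers were 0.022, 0.064, -0.118, 0.108 and -0.205 in turn, so only number 6 stood clearly higher. So few correlations cannot decide whether the numbers mark a shared culture or batch. With the replicate number as a block, 2 light chain genes, 6 related genes and 781 of all genes passed; Myl3 was 1.33 with an adjusted p of 0.0991. The small counts of Myl3 and Myl9 limit their precision.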
